A study of Mus musculus with 17 samples.

Results

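The 42 genes described here encode the secreted Wnt proteins, the receptors that bind them and the extracellular and feedback factors that limit the signal. They were chosen by name from 19938 genes with a level on the array: 19 Wnt genes, 10 Frizzled (Fzd) genes, 4 Sfrp genes, 4 Dkk genes and the 5 genes Lrp5, Lrp6, Axin2, Lgr5 and Wif1. The rule uses names and no measured value. The series holds 12 tumours of the mouse mammary gland and 5 normal glands, all of mixed strain background, with the RNA of each hybridised to 1 Affymetrix Mouse Gene 1.0 ST array. Levels are log2 values, so a difference of 1 is a 2-fold change. No ages were given.

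The 9 Rb/p53 tumours had lost Rb1, the retinoblastoma gene, together with the p53 gene Trp53. In 7 of them Cre recombinase was driven by MMTV, the promoter of the mouse mammary tumour virus, which is active in mammary epithelium. The mouse of replicate 1 was nulliparous and that of replicate 2 parous, and replicates 3 to 7 are labelled as transplants. The other 2 received Cre from an adenovirus with the CMV promoter (Ad-Cre) and are both labelled as transplants, so the way of deletion and transplantation cannot be told apart by these 2 tumours alone. In the 3 p53 tumours MMTV-Cre removed p53. For replicate 3 of these the labels disagree: the title has the Rb/p53 model, the other fields p53 loss, and the other fields were followed. Normal tissue was taken from Rb/p53 mice as well. The tumours are described as independent, but the labels do not name the donor tumours of the transplants, which may share a donor. Nothing states that the normal samples came from separate animals. A p-value therefore covers the spread of these samples only, which may be technical.

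Wnt proteins are lipid-modified ligands that bind a Frizzled receptor together with the co-receptor Lrp5 or Lrp6, which stops the destruction of β-catenin and lets it switch on target genes with TCF and LEF factors. Other Wnts act through Frizzled without β-catenin, on cell polarity and calcium. Sfrp proteins and Wif1 bind Wnts outside the cell, most Dkk proteins block Lrp5 and Lrp6, and Axin2 is both a target and a brake of the β-catenin branch. In the mouse mammary gland the pathway supports branching and stem cells, and Wnt1 was found as a gene that the mammary tumour virus activates.

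Rb1 was measured first as a check of the labels. Its log2 level was 9.29 to 9.92 in the Rb/p53 tumours, 9.93 on p53 replicate 1, 11.00 on replicate 2, 10.27 on replicate 3 and 10.93 to 11.50 in normal tissue. Where its probes lie relative to the deleted part of the gene was not analysed, and Trp53 did not have a probe set of its own. The array of p53 replicate 2 stood apart from all others. Its correlation with the other arrays was 0.888 to 0.915 and its interquartile range 2.39, against 2.91 to 3.18 elsewhere. Olfactory receptor genes, which mammary cells are not known to use, served as a background measure, and their 95th percentile was 7.98 on that array and 6.91 to 7.25 on the other arrays. By this measure 17 of the 42 genes were above background on all 17 arrays, 21 on some and 4 on none. The 4 were Wnt1, Wnt3, Wnt7a and Wnt8b, whose levels ran from 6.05 to 6.88 over all arrays. Their values lie within background, and small differences between them have no reading as a level.

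Mammary fat sets the tissue apart from the tumours. The mean log2 level of 12 adipocyte markers was 12.29 to 12.75 in normal tissue, 7.30 to 8.38 in the Rb/p53 tumours and 7.35 to 8.09 in the p53 tumours. Adipoq and Lep, which only fat cells make in quantity, reached at most 8.33 and 6.76 in any tumour. All 12 were lower in both tumour genotypes by the limma test that follows. The mean of 12 basal and myoepithelial markers was 10.47 to 10.77 in normal tissue and 8.55 to 9.20 in tumours, and that of 15 luminal markers 10.72 to 10.87 and 8.02 to 9.78. Fibroblast markers stood at 11.34 to 11.65 against 9.82 to 11.03. The part of these shifts in the Wnt gene differences was not tested, and in such bulk samples fewer cells of a type and less RNA per cell cannot be told apart.

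Promoters are shown for 5 of the genes on which the results turn, Axin2, Fzd4, Fzd7 and Wif1, which were lower in tumours of both genotypes, and Dkk2, which was higher in Rb/p53 tumours. Each is the 250 bases before the annotated start in the RefSeq annotation of GRCm38.p6, plus strand, 5′ to 3′, in lower case. Capitals mark a match to the TCF/LEF word CTTTG followed by A or T at each of the next 2 positions, read on both strands with overlaps allowed. Axin2 lies at chr11:108920099-108920348, Fzd4 at chr7:89404116-89404365, Fzd7 at chr1:59481897-59482146, Wif1 at chr10:121033754-121034003 and Dkk2 at chr3:132085042-132085291.
Axin2: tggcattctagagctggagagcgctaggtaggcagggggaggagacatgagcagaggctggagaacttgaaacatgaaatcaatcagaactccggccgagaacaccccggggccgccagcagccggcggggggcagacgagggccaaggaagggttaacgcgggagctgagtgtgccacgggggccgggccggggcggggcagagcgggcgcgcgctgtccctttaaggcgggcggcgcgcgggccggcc
Fzd4: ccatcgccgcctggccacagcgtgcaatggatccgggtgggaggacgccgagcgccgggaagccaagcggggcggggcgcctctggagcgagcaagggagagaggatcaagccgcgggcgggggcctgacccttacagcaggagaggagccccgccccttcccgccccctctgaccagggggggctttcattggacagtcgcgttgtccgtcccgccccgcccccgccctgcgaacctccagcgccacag
Fzd7: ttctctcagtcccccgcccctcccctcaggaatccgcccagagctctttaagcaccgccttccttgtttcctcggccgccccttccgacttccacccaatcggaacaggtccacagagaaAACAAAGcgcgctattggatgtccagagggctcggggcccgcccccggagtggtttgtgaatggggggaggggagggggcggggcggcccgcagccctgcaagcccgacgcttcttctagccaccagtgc
Wif1: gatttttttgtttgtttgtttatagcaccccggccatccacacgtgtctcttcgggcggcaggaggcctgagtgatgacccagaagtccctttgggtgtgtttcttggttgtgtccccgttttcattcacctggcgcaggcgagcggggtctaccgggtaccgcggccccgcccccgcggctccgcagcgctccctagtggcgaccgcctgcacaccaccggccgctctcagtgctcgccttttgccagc
Dkk2: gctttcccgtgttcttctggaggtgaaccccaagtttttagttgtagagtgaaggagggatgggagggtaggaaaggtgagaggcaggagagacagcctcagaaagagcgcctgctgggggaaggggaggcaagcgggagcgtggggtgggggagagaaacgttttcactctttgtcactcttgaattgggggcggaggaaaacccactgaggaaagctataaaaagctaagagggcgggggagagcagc

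Fzd7 held the reverse form of CTTTGTT with its first base at -130, and the other 4 windows held no match. Of the 42 genes 27 had a promoter entry, and 4 of these 27 (14.8%) had a match in at least 1 entry: Dkk1, Fzd7, Wnt11 and Wnt5b. Counted by gene, 16.8% of 27025 genes did, and counted by entry 13.3% of the 30 entries of these genes against 14.8% of all 32851. A match describes letters only. The promoters of these genes were rich in G and C, with a median of 68.6% against 52.4% over all entries, and had a median of 22 CpG dinucleotides against 6. Dkk2 had 7 CpG dinucleotides in its window, Axin2 24, Fzd4 25, Wif1 21 and Fzd7 17.

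The first question was how Wnt genes in Rb/p53 tumours differ from normal mammary tissue. Of the 42 genes 11 were lower and 2 higher. The lower genes included the extracellular Wnt inhibitors Sfrp4, Wif1 and Sfrp5, the receptors Fzd4, Fzd7, Fzd3 and Fzd10, the ligands Wnt5b, Wnt4 and Wnt11, and the feedback gene Axin2. Higher were the inhibitor Dkk2 and the ligand Wnt10a. Genes were tested with limma on all 17 arrays, with p adjusted by the Benjamini-Hochberg method over all 19938 genes and a threshold of 0.05. At this threshold 27.6% of all genes passed, 14.2% as higher and 13.4% as lower. In all 13 of 42 Wnt genes passed, near the share of all genes, but with another balance of directions: 26.2% of the 42 were lower and 4.76% higher. The median difference of the 42 genes was -0.08, and that of all genes 0.03. Of the 29 genes that did not pass, 6 had an unadjusted p below 0.05. In all 19 of the 42 genes had one, beside 7416 of all 19938 genes.

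**Figure D1:**
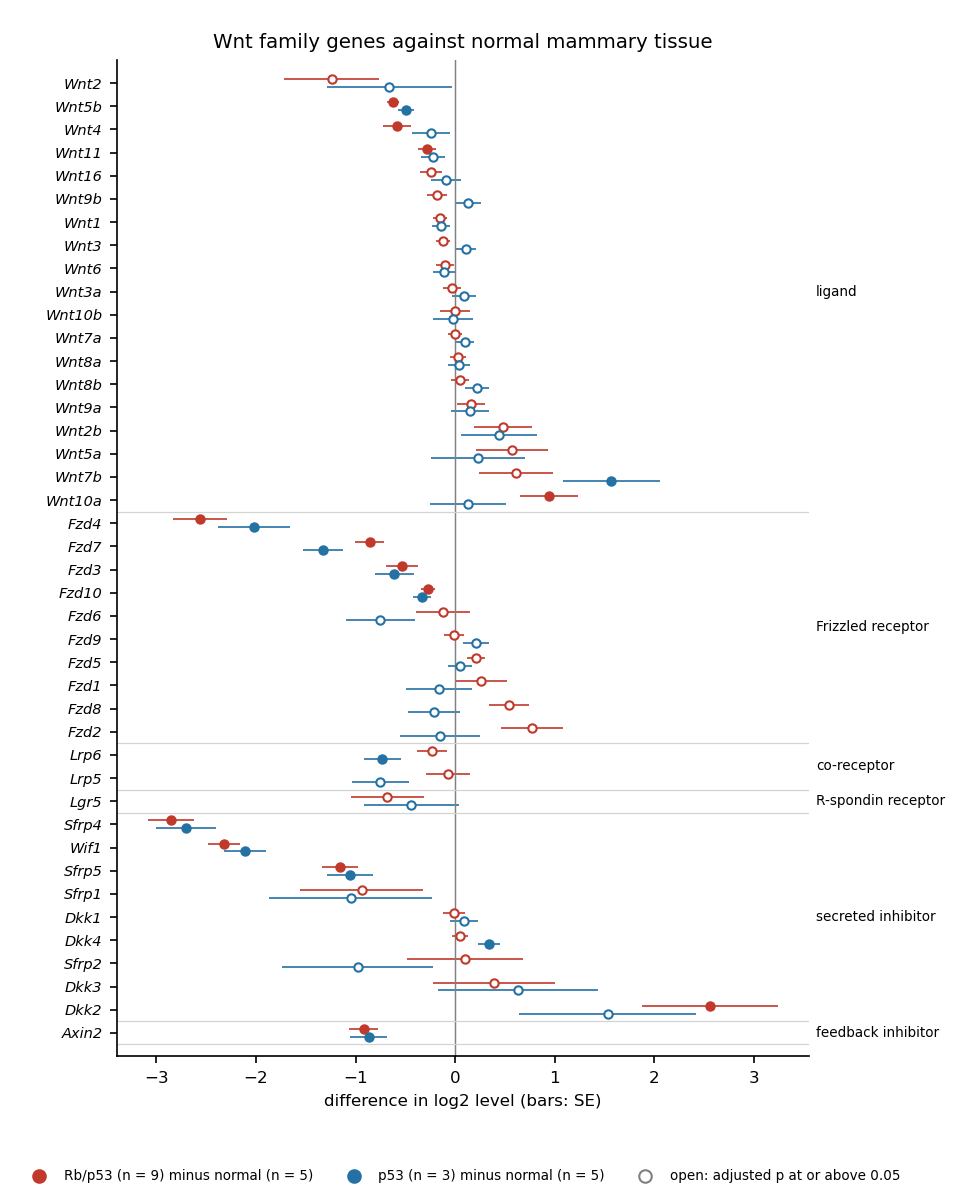
Difference in log2 level against normal tissue for each of the 42 genes, grouped by role, with bars of 1 SE; red is the 9 Rb/p53 tumours and blue the 3 p53 tumours, each minus the 5 normal samples, and filled points have an adjusted p below 0.05. Sfrp4, Wif1 and Fzd4 lie beyond -2 in both genotypes, and Dkk2 lies at 2.56 in Rb/p53 tumours with a wide bar.

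Among the 19 ligands, 3 were lower and 1 was higher. Wnt5b, a ligand of the β-catenin-independent kind, was between 8.00 and 8.22 in the 9 Rb/p53 tumours, with a median of 8.12, and at 8.78, 8.83, 8.67, 8.74 and 8.60 in normal tissue. The groups did not overlap and both were narrow. Its log2 difference was -0.62 ± 0.06 (SE; limma adjusted p = 1.51e-06), a 1.53-fold decrease. Wnt4, which progesterone induces in the mammary epithelium for side branching, ran from 7.86 through a median of 8.06 to 8.29 in the tumours. Normal samples had 8.53, 8.50, 8.46, 8.82 and 8.96, all above every Rb/p53 tumour. The difference was -0.58 ± 0.14 (limma adjusted p = 0.00606). A second probe set of Wnt4 gave the same order, at 7.60 ± 0.19 (SD, n = 9) for the Rb/p53 group against 8.10 ± 0.07 (SD, n = 5) for normal glands. Wnt11, which guides cell movement, differed by -0.28 ± 0.09 (limma adjusted p = 0.0225). Its highest tumours (7.61) and lowest normal sample (7.61) met at the second decimal, and the call was lost without normal replicate 1 (adjusted p = 0.0842) or 2 (adjusted p = 0.0542).

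Wnt10a, a β-catenin ligand needed in skin appendages and teeth, was the ligand that rose. It stood at 9.78, 8.07, 8.48, 10.10, 9.29, 9.24 and 9.49 in MMTV-Cre replicates 1 to 7 and at 8.46 and 8.14 in the Ad-Cre tumours. The normal samples lay between 7.94 and 8.21. Thus 7 of 9 tumours were above all normal samples, and MMTV-Cre replicate 2 and Ad-Cre replicate 2 lay within their range. The log2 difference was 0.94 ± 0.29 (SE; limma adjusted p = 0.0229), and it did not pass without normal replicate 3 (0.91, adjusted p = 0.0532).

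Wnt2, a ligand of mammary stroma, split the tumours. It was 7.24 to 7.68 in 7 Rb/p53 tumours, 10.36 in MMTV-Cre replicate 2 and 9.66 in Ad-Cre replicate 2. Normal tissue held 9.05, 9.22, 9.49, 8.87 and 9.44. The 7 tumours were below all normal samples and the other 2 above them, and the mean difference of -1.24 ± 0.48 did not pass (limma adjusted p = 0.0678). Without MMTV-Cre replicate 2 Wnt2 passed as lower (-1.53, adjusted p = 0.00437), and so it did without Ad-Cre replicate 2 (-1.45, adjusted p = 0.0228).

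Wnt5a, Wnt7b and Wnt2b were also uneven between tumours. Wnt5a, a relative of Wnt5b that acts on cell polarity, ranged from 7.90 to 10.26 in Rb/p53 tumours and from 8.62 to 8.95 in normal tissue. Wnt2b was 7.04 to 7.83 in 8 Rb/p53 tumours and 9.29 in Ad-Cre replicate 2, against 6.95 to 7.14 in normal tissue. Neither passed, with differences of 0.57 ± 0.36 and 0.48 ± 0.29. The other 11 ligands that did not pass, leaving Wnt7b to the p53 tumours, differed by -0.24 to 0.16. Wnt9a ran from 7.94 to 8.88 in Rb/p53 tumours against 7.89 to 8.38, Wnt9b from 7.79 to 8.00 against 7.91 to 8.24 and Wnt3a from 7.16 to 7.47 against 7.27 to 7.53. Wnt16 and Wnt6 were near background at 7.06 to 7.36 and 7.01 to 7.49. Wnt10b, which overexpressed drives mammary tumours in mice, had a mean of 7.72 ± 0.35 (SD, n = 9) and 7.73 ± 0.09 (SD, n = 5), with a high value of 8.50 in MMTV-Cre replicate 4.

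**Figure D2:**
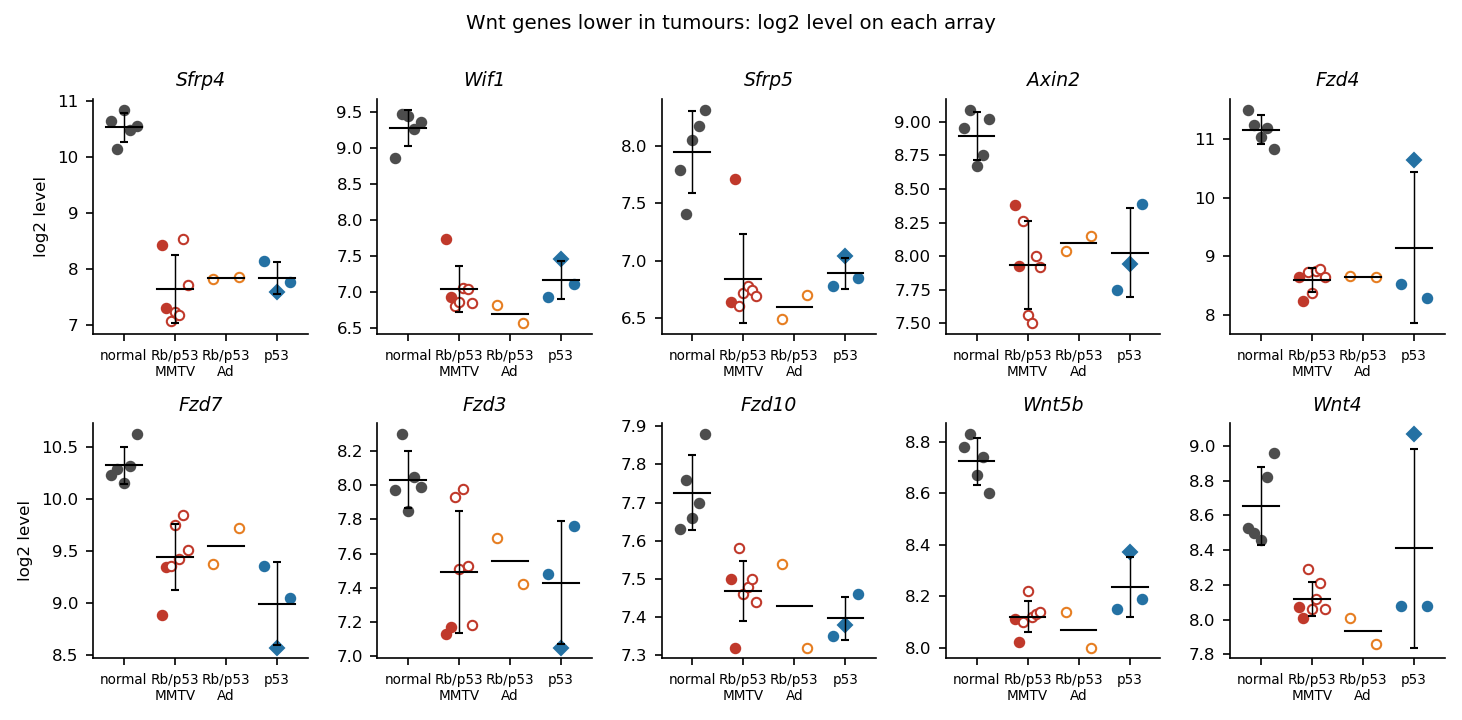
Log2 level of 10 genes on each of the 17 arrays, 1 panel per gene with its own axis; points are arrays, open circles tumours labelled as transplants, the diamond p53 replicate 2, lines group means and bars SD for groups of more than 2 arrays. In the panels of Sfrp4, Wif1, Axin2, Fzd7, Fzd10 and Wnt5b every tumour lies below every normal sample, while p53 replicate 2 lies close to normal tissue for Fzd4 (10.64) and above it for Wnt4 (9.07).

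Frizzled receptors showed 4 lower genes of 10 and none higher past the threshold. Fzd4, the receptor of norrin as well as of Wnts and a gene of blood vessel growth, had 8.24, 8.64 and 8.79 as lowest, median and highest Rb/p53 tumour. In normal tissue it had 11.51, 11.25, 11.04, 11.20 and 10.84. The gap between the groups was larger than 2 on the log2 scale, and the difference was -2.56 ± 0.27 (SE; limma adjusted p = 2.23e-06), a 5.91-fold decrease. The mean of 10 endothelial markers was 9.30 to 10.06 in these tumours and 10.03 to 10.41 in normal tissue, and 2 of the 10, Kdr and Tek, were lower.

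Fzd7, a Frizzled studied in mammary stem cells, was 8.88 to 9.85 (median 9.42) in Rb/p53 tumours and 10.23, 10.29, 10.16, 10.32 and 10.63 in normal tissue. No tumour reached a normal sample, and the difference was -0.86 ± 0.15 (limma adjusted p = 0.00046). Fzd10 was 7.32 to 7.58 against 7.63 to 7.88, also without overlap, and differed by -0.27 ± 0.07 (limma adjusted p = 0.0059). Fzd3, which acts in planar polarity with Fzd6, was 7.13 to 7.98 against 7.85 to 8.30. MMTV-Cre replicates 3 and 5 lay within the normal range of Fzd3, its difference was -0.53 ± 0.16 (limma adjusted p = 0.0168), and it did not pass without normal replicate 2 (adjusted p = 0.0562).

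Fzd8 and Fzd2 leaned the other way. Fzd8 was 8.58 to 9.27 in Rb/p53 tumours and 8.17 to 8.52 in normal tissue, without overlap, but its difference of 0.54 ± 0.20 missed the threshold (limma adjusted p = 0.0585). Fzd2 was 9.18 to 11.15 against 9.20 to 9.37, with a difference of 0.77 ± 0.31 (limma adjusted p = 0.0721). Both passed as higher when p53 replicate 2 was left out of the fit, which estimates the spread from all groups, and 16 of the 42 genes then passed, 4 of them higher, beside 33.7% of all genes. Fzd6 was 10.03 in MMTV-Cre replicate 2 and 8.17 in replicate 7, with a normal range of 8.47 to 9.15. Fzd1, which ran from 9.01 to 10.75 against 9.26 to 9.93, Fzd5, Fzd6 and Fzd9 differed by -0.12 to 0.26 and did not pass.

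The co-receptors and the R-spondin receptor did not pass. Lrp6 had 10.13 to 11.00 in Rb/p53 tumours and 10.60 to 11.01 in normal tissue, a difference of -0.23 with a 95% interval of -0.54 to 0.09. Lrp5 had 9.72 to 10.23 in 8 tumours and 11.05 in MMTV-Cre replicate 4, against 10.07 to 10.29. Lgr5, which marks Wnt-dependent stem cells, was 6.75 to 8.12 in 8 tumours and 9.41 in Ad-Cre replicate 2, and 7.63 to 9.08 in normal tissue (difference -0.68 ± 0.37, limma adjusted p = 0.203).

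Secreted inhibitors held the widest differences in both directions, with 3 of 9 lower and 1 higher. Sfrp4, a secreted Frizzled-related protein of stroma and fat, was 7.08, 7.73 and 8.55 as lowest, median and highest Rb/p53 tumour. Normal tissue had 10.64, 10.15, 10.85, 10.49 and 10.55. Every tumour was far below every normal sample, and the difference was -2.85 ± 0.23 (SE; limma adjusted p = 7.72e-08), a 7.19-fold decrease. Wif1, which captures Wnts directly, was 6.57 to 7.74 (median 6.87) in tumours and 8.86, 9.48, 9.45, 9.27 and 9.37 in normal tissue. It differed by -2.32 ± 0.16 (limma adjusted p = 1.01e-08), a 4.99-fold decrease. Sfrp5, known from fat tissue as a Wnt5a inhibitor, was 6.49 to 6.78 in 8 tumours, 7.71 in MMTV-Cre replicate 2 and 7.79, 7.41, 8.05, 8.18 and 8.32 in normal tissue. Only that 1 tumour lay within the normal range, and the difference was -1.16 ± 0.18 (limma adjusted p = 0.000109).

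Wif1 and Sfrp5 fell to the background of the array. Of the 9 Rb/p53 tumours 1 was above the 95th percentile of olfactory receptor genes for each of the 2 genes, while all 5 normal samples were. Their measured differences are bounded by that background. Sfrp4 was above it on 16 of 17 arrays.

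Dkk2, which binds Lrp5 and Lrp6, rose and varied most among the genes that passed. The MMTV-Cre tumours had 10.93, 10.18, 11.85, 10.47, 11.97, 12.02 and 8.62 and the Ad-Cre tumours 10.09 and 7.57. Normal tissue had 7.78, 7.82, 7.77, 8.01 and 7.87. Thus 8 of 9 tumours were above all normal samples, 7 of them by more than 2 on the log2 scale, and Ad-Cre replicate 2 was below them. The difference was 2.56 ± 0.68 (SE; limma adjusted p = 0.00947), a 5.89-fold increase.

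Sfrp1, Sfrp2 and Dkk3 spread widely around normal tissue. Sfrp1, a Wnt inhibitor often silenced in human breast tumours, ran from 6.95 in MMTV-Cre replicate 5 to 11.91 in Ad-Cre replicate 2, the widest range of the 42 genes in these tumours (4.96), against 10.10 to 11.02 in normal tissue. Sfrp2, a fibroblast product, ran from 9.53 to 13.17 against 10.52 to 11.49. Dkk3, the divergent Dkk, ran from 7.21 to 11.20 against 8.25 to 9.01. None of the 3 passed, and tumours lay on both sides of normal tissue. The 95% interval of the difference was -2.26 to 0.38 for Sfrp1, -1.13 to 1.33 for Sfrp2 and -0.90 to 1.67 for Dkk3. Dkk1 and Dkk4 differed by -0.01 and 0.05.

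**Figure D3:**
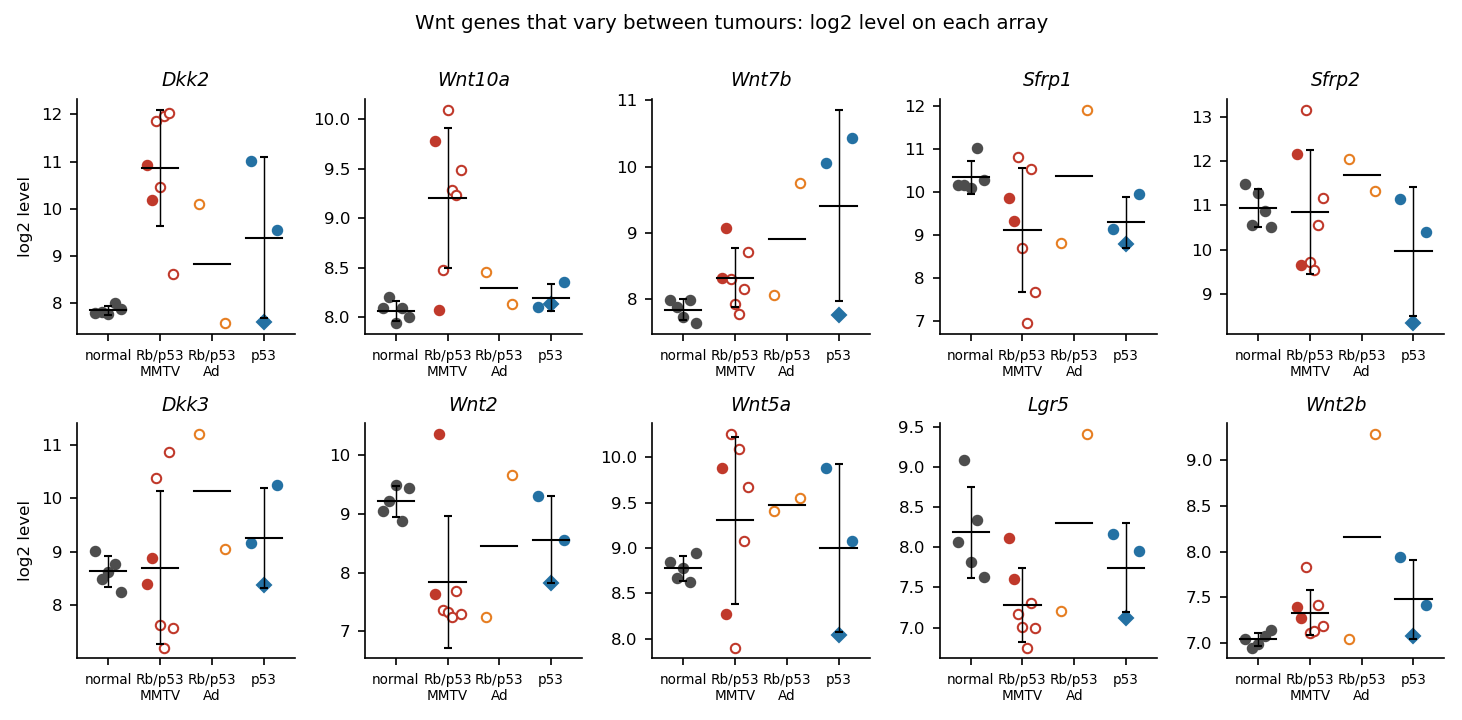
Log2 level of 10 genes that varied between tumours on each of the 17 arrays, drawn as in the plot of lower genes, with an axis of its own for each gene. Dkk2 is high in 8 of 9 Rb/p53 tumours and at 7.57 in Ad-Cre replicate 2, the tumour with the highest Sfrp1 (11.91), Lgr5 (9.41) and Wnt2b (9.29).

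Axin2, the feedback gene that is read most often as a sign of β-catenin activity, was lower in every tumour. MMTV-Cre replicates 1 to 7 had 8.38, 7.93, 8.26, 7.56, 7.50, 8.00 and 7.92 and the Ad-Cre tumours 8.04 and 8.15, against 8.95, 9.09, 8.67, 8.75 and 9.02 in normal tissue. The groups did not overlap. The difference was -0.92 ± 0.15 (SE; limma adjusted p = 0.00016), a 1.89-fold decrease. Basal and luminal marker levels fell in the same tumours, as given above, and their part was not tested. Against normal tissue, MMTV-Cre replicates 1 and 2 alone gave -0.74 (adjusted p = 0.0497).

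The spread among the 9 Rb/p53 tumours had a median SD of 0.29 for these genes, against 0.19 over all genes. The medians were not matched for level, and all genes include those at background, such as the olfactory receptor genes. MMTV-Cre replicate 4 had the highest level of the 9 for 16 of the 42 genes, among them Lrp5 (11.05), Lrp6 (11.00), Wnt10a (10.10), Wnt10b (8.50), Fzd5 (8.53) and Fzd8 (9.27). MMTV-Cre replicate 2 was the lowest for 11, and Ad-Cre replicate 2 the lowest for 10 and the highest for 5. The 5 were Wnt7b (9.75), Wnt2b (9.29), Lgr5 (9.41), Sfrp1 (11.91) and Wnt16 (7.36). Such ranks were not counted over all genes, so they are not shown to be particular to the Wnt genes. The olfactory 95th percentile was 6.91 to 7.17 on these arrays, and its part in the ranks was not tested.

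**Figure D4:**
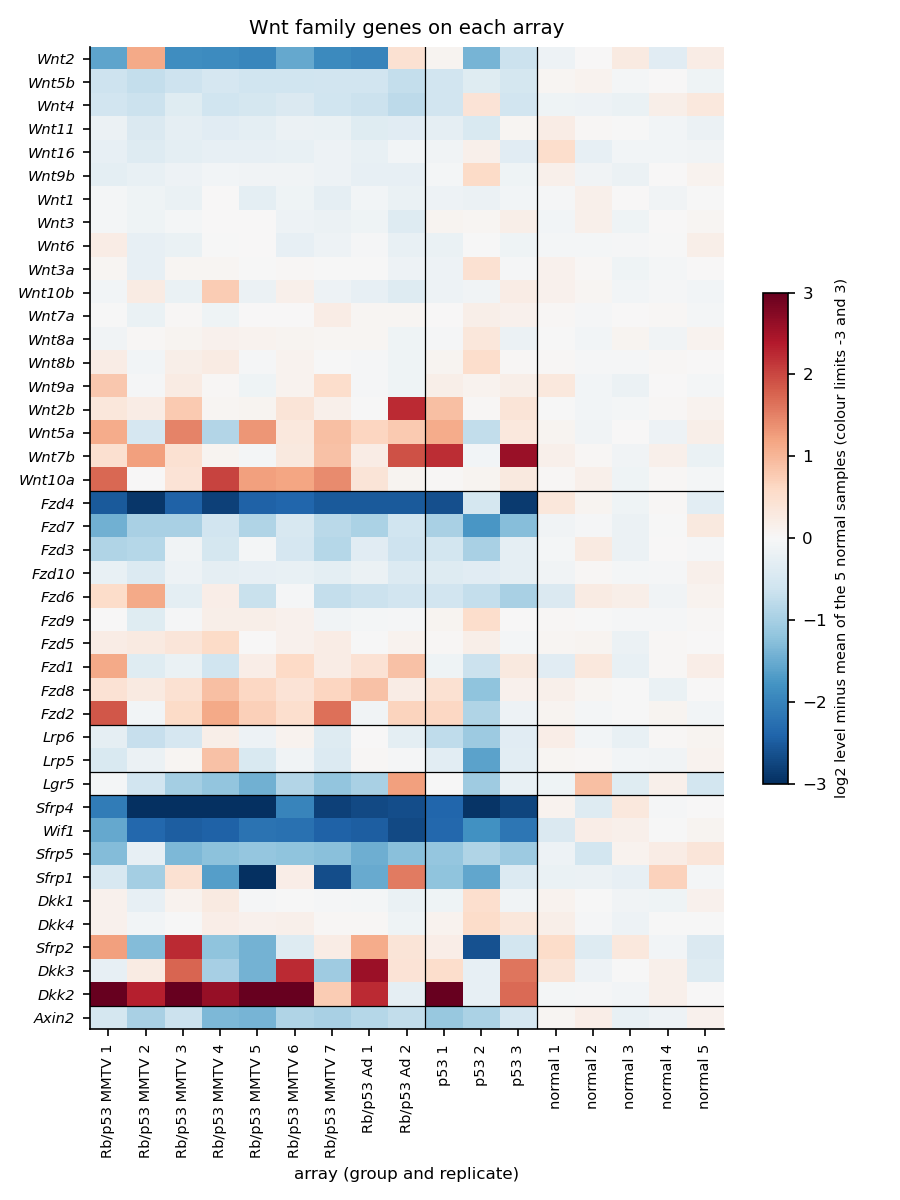
Log2 level of each of the 42 genes on each of the 17 arrays minus the mean of the 5 normal samples, with genes grouped by role and colour limits of -3 and 3. The rows of Sfrp4, Wif1 and Fzd4 are blue over the Rb/p53 tumours, Dkk2 is red over 8 of them, and most Wnt rows are pale.

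The second question was how p53 tumours differ from the same normal samples. Of the 42 genes 10 were lower and 2 higher, while 20.4% of all genes passed, 12.1% as lower and 8.34% as higher. Lower were Sfrp4, Wif1, Sfrp5, Fzd4, Fzd7, Fzd3, Fzd10, Wnt5b, Lrp6 and Axin2, and higher were Wnt7b and Dkk4. The median difference was -0.14, against 0.09 over all genes. Without p53 replicate 2, the array that stood apart, 9 were lower and 1 was higher, while 21.2% of all genes passed. Wnt4 was gained and Dkk4, Fzd3 and Lrp6 were lost. This comparison and that of Rb/p53 tumours share their normal samples, so their values are given side by side and no agreement is read from them.

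Sfrp4, Wif1 and Fzd4 gave the widest differences here too. Sfrp4 was 8.15, 7.59 and 7.78 in p53 replicates 1, 2 and 3, a difference of -2.70 ± 0.30 (SE), against -2.85 in Rb/p53 tumours. Wif1 was 6.94, 7.46 and 7.11 (-2.11 ± 0.21) and Sfrp5 6.78, 7.04 and 6.85 (-1.06 ± 0.23). All lay below every normal sample. The background of the 3 arrays was 7.25, 7.98 and 7.05. Of the Wif1 and Sfrp5 values only Wif1 in replicate 3 was above it, so their differences are bounded by that background. The Sfrp4 value of replicate 2 also lay below the background of its array. Fzd4 was 8.52 and 8.29 in replicates 1 and 3 but 10.64 in replicate 2, just under the lowest normal value of 10.84, and differed by -2.02 ± 0.36, or by -2.77 ± 0.17 without replicate 2.

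Fzd7 was 9.36, 8.57 and 9.05, a difference of -1.33 ± 0.20, and fell by 1.12 on the log2 scale without replicate 2. Axin2 was 7.75, 7.94 and 8.39, all below the lowest normal sample of 8.67 (-0.87 ± 0.19, limma adjusted p = 0.004). Wnt5b was 8.15, 8.37 and 8.19 (-0.49 ± 0.08) and Fzd10 7.35, 7.38 and 7.46 (-0.33 ± 0.09), again without overlap. Lrp6 was 10.06, 9.74 and 10.48 against 10.60 to 11.01 (-0.73 ± 0.19, limma adjusted p = 0.013). Its call was lost without replicate 2 (-0.55, adjusted p = 0.0693). Fzd3 was 7.48, 7.05 and 7.76, and its call (-0.61 ± 0.20, adjusted p = 0.0439) was lost in 7 of the 8 fits that left out 1 sample. The replicate 2 values of Axin2, Fzd10 and Fzd3 lay below that array's background of 7.98.

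Wnt7b, a β-catenin ligand that macrophages and epithelium can make, was 10.05 and 10.43 in p53 replicates 1 and 3 and 7.76 in replicate 2. Normal tissue held 7.99, 7.88, 7.73, 7.99 and 7.64. Of the p53 tumours 2 were more than 2 above normal tissue and the other within its range. The difference was 1.57 ± 0.49 (SE; limma adjusted p = 0.0319), it was 2.39 without replicate 2 (adjusted p = 0.000451), and it did not pass without p53 replicate 1 (1.25, adjusted p = 0.117) or 3 (1.06, adjusted p = 0.133), nor without normal replicate 2, 3 or 5. In Rb/p53 tumours Wnt7b was 7.78 to 9.07 in 8 tumours and 9.75 in Ad-Cre replicate 2, with a difference of 0.61 ± 0.37 that did not pass. The mean of 9 macrophage markers was 10.21 to 10.61 in normal tissue, 11.07 to 12.38 in p53 tumours and 10.49 to 11.42 in Rb/p53 tumours. On p53 replicate 2 the Wnt7b value of 7.76 lay below that array's background of 7.98, and the part of macrophages in Wnt7b was not tested.

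Dkk4 was 7.09, 7.54 and 7.33 against 6.84 to 7.17, close to background, and of the p53 tumours only replicate 3 was above its array's background. Its call (0.34 ± 0.11, limma adjusted p = 0.0397) was lost without p53 replicate 2 (0.23, adjusted p = 0.163). The call was also lost without p53 replicate 3 or without normal replicate 2, 3, 4 or 5. Dkk2 was 11.01, 7.60 and 9.55. Its difference of 1.53 ± 0.89 did not pass (limma adjusted p = 0.226), with 2 tumours above all normal samples and replicate 2 below them. The Dkk2 value of replicate 2 lay below that array's background of 7.98. Wnt10a was 8.10, 8.14 and 8.36, near the normal range of 7.94 to 8.21. The difference of 0.13 ± 0.38 did not pass. Lrp5 (9.85, 8.58 and 9.86), Fzd6 (8.32, 8.19 and 7.92) and Sfrp1 (9.14, 8.79 and 9.94) lay below every normal sample without passing, with differences of -0.75 ± 0.29, -0.75 ± 0.35 and -1.05 ± 0.82. Wnt4 was 8.08 in replicates 1 and 3 and 9.07 in replicate 2, and passed as lower once replicate 2 was left out (-0.57, adjusted p = 0.00613). The high value of replicate 2 was not seen with the second probe set of Wnt4. That probe set had 7.47 ± 0.06 (SD, n = 3) in p53 tumours, below the replicate 2 background of 7.98, and 8.10 ± 0.07 (SD, n = 5) in normal glands. With the mean of both probe sets Wnt4 passed with replicate 2 kept.

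The third question was whether Rb/p53 tumours differ from p53 tumours. On the 12 tumour arrays none of the 42 genes passed by limma (0.00502% of all genes passed, 1 gene). An unadjusted p below 0.05 was found for 4117 of all 19938 genes and for 8 of the 42. The 8 were Dkk4, Fzd2, Fzd7, Fzd8, Lrp5, Lrp6, Wnt3 and Wnt9b. For Axin2 the difference was -0.06 with a 95% interval of -0.47 to 0.36, for Wif1 -0.21 with -0.64 to 0.22 and for Sfrp4 -0.15 with -0.80 to 0.51. For Dkk2 the interval of -1.01 to 3.06 was wide. Wnt10a differed by 0.81 (95% interval -0.06 to 1.67) and Wnt7b by -0.96 (-2.07 to 0.15). Fzd8 differed by 0.75 ± 0.27 and Lrp6 by 0.50 ± 0.19, and without p53 replicate 2 by 0.25 and 0.33. Where p53 replicate 3 was counted with the Rb/p53 tumours, as its title has it, Lrp6 passed (0.68, limma adjusted p = 0.0498), 1 of 42 genes beside 10.3% of all genes (2044). Without that tumour 6.81% of all genes (1358) passed and none of the 42, so the count over all genes rests on p53 replicate 3.

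The way of deletion made no difference that passed. Between the 2 Ad-Cre and 7 MMTV-Cre tumours 0 of the 42 genes passed by limma (0.00502% of all genes did). An unadjusted p below 0.05 was found for none of the 42 and for 412 of all 19938 genes. The Ad-Cre tumours differed from each other: they had 10.09 and 7.57 for Dkk2, 8.82 and 11.91 for Sfrp1, 7.20 and 9.41 for Lgr5, 7.24 and 9.66 for Wnt2 and 11.20 and 9.05 for Dkk3. The interval for Dkk2 was -4.25 to 0.18 and for Axin2 -0.36 to 0.67. Without Ad-Cre replicate 1 Wnt2b passed, from the 9.29 of the lone Ad-Cre tumour left.

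Transplanted and other MMTV-Cre tumours gave 0 of 42 genes past the limma threshold (0.0251% of all genes passed, 5 genes). An unadjusted p below 0.05 was found for 4 of the 42 and for 1579 of all 19938 genes. Fzd6 was 9.45 and 10.03 in replicates 1 and 2 and 8.17 to 9.10 in the 5 transplants (-1.15 ± 0.29). Lgr5 was 8.12 and 7.60 against 6.75 to 7.30 (-0.82 ± 0.19). Neither overlapped between the groups, nor did Fzd7 below, and the share of all genes without overlap was not counted. Wnt2 was 7.64 and 10.36 against 7.25 to 7.68 (-1.62 ± 0.62), and Fzd7 8.88 and 9.35 against 9.36 to 9.85 (0.46 ± 0.19). Without replicate 1, Wnt2 (-2.98, adjusted p = 0.00134) and Sfrp5 passed, both resting on replicate 2 alone.

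Other genes of the pathway were grouped by role. Of those named, Wls, Notum, Lgr4, Kremen1, Id2, Tnfrsf19, Znrf3 and Sox9 were picked after their values were seen. In Rb/p53 tumours, 2 of 16 genes of Wnt secretion and extracellular control were higher and 4 lower. These are 12.5% and 25%, beside 14.2% and 13.4% of all genes. The lower were Gpc3, a glypican that binds Wnts (-3.42 ± 0.34, SE), Rspo1, an R-spondin that amplifies Wnt signals (-3.34 ± 0.35), the inhibitor Sostdc1 (-1.85 ± 0.15) and the inhibitor Apcdd1 (-1.55 ± 0.28). The 2 higher genes were Wls, which carries Wnts to the cell surface (1.16 ± 0.19, limma adjusted p = 0.000184), and Notum, which strips the lipid from Wnts (0.96 ± 0.34, limma adjusted p = 0.0433). Wls was 11.41 to 12.39 in Rb/p53 tumours and 10.55 to 11.02 in normal tissue. Rspo1 was 7.62 to 8.44 in Rb/p53 tumours and 11.91, 11.97, 11.69 and 11.97 in normal replicates 2 to 5, with 9.22 in normal replicate 1. Every Rb/p53 tumour was thus below every normal sample for Rspo1 and above every one for Wls.

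Of 15 other receptors and membrane regulators 1 was higher and 5 were lower in Rb/p53 tumours. These are 6.67% and 33.3%, beside 14.2% and 13.4% of all genes. The lower were Tspan12 (-2.39 ± 0.39), the partner of Fzd4 for norrin, Reck (-1.89 ± 0.23), Rnf43 (-1.57 ± 0.19), a ligase that removes Frizzled, and the R-spondin receptors Lgr6 (-1.39 ± 0.49) and Lgr4 (-1.23 ± 0.30). The higher gene was Kremen1, a Dkk receptor (0.41 ± 0.11). In p53 tumours 0 of 15 were higher and 5 lower, beside 8.34% and 12.1% of all genes. The lower included Tspan12 (-2.85 ± 0.51), Reck (-2.33 ± 0.30), Lgr4 (-2.05 ± 0.39) and Rnf43 (-1.64 ± 0.25). Of the 16 secretion and extracellular genes 0 were higher and 5 lower in p53 tumours, including Rspo1 (-3.30 ± 0.45), Gpc3 (-2.71 ± 0.45), Sostdc1 (-1.96 ± 0.20) and Gpc4 (-1.81 ± 0.46). Without p53 replicate 2, 1 was higher and 4 lower: Wls passed as higher (0.88 ± 0.24, limma adjusted p = 0.0153) and Gpc4 no longer passed (-1.19, adjusted p = 0.0638). The other receptors then held 0 higher and 4 lower in p53 tumours, and 2 higher and 6 lower in Rb/p53 tumours. In those fits 21.2% and 33.7% of all genes passed.

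Inside the cell, 5 of 24 core genes were higher and 3 lower in Rb/p53 tumours, beside 14.2% and 13.4% of all genes. Among them were Ppp2r5a at -1.74 ± 0.15, Nkd1 at -1.17 ± 0.12, Tnks, which marks Axin for destruction, at 0.69 ± 0.17 and Csnk1e at 0.65 ± 0.14. Ctnnb1, the gene of β-catenin, did not pass (0.19 ± 0.15, limma adjusted p = 0.405). Of 18 nuclear factors 2 were higher and 6 lower, led by the TCF genes Tcf7l1 (-1.06 ± 0.14) and Tcf7l2 (-0.98 ± 0.14). In p53 tumours these were -1.89 ± 0.19 and -1.77 ± 0.19, with 0 of 18 higher and 5 lower. There 2 of the 24 core genes were higher and 5 lower, beside 8.34% and 12.1% of all genes. Of 16 genes of the polarity and calcium branch 2 were higher and 2 lower in Rb/p53 tumours and 1 higher and 3 lower in p53 tumours, with Celsr2 at -1.34 ± 0.09 and -1.50 ± 0.12. Without p53 replicate 2 the core counts were 8 higher and 3 lower in Rb/p53 tumours and 4 and 4 in p53 tumours. In those fits 33.7% and 21.2% of all genes passed, and 4 nuclear factors were higher in Rb/p53 tumours. No pathway gene of these lists passed between tumour groups.

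Of 21 further Wnt target genes measured, 5 were lower and 2 higher in Rb/p53 tumours (23.8% and 9.52%), against 13.4% and 14.2% of all genes. Lower were Rnf43, Apcdd1, Nkd1, Id2 and Tnfrsf19. The higher were Cd44 (1.10 ± 0.18) and Notum. Rnf43, Apcdd1, Nkd1 and Notum also belong to the role lists above, so their calls are counted there as well. In p53 tumours 5 were lower and 1, Cd44, was higher (1.44 ± 0.24), beside 12.1% and 8.34% of all genes. The list's median difference was 0.02 and -0.24 in the 2 comparisons, against 0.03 and 0.09 over all genes.

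Over the 9 Rb/p53 tumours the level of Axin2 was set against that of 22 genes, the 21 targets and Lgr5, each with an exact permutation test. None passed by Pearson's r after adjustment over the 22. Znrf3, a ligase that removes Frizzled, came nearest, with r = -0.86 (exact p = 0.00271, adjusted p = 0.0596) and rho = -0.92 (exact p = 0.00131, adjusted p = 0.0289). Without the 2 tumours farthest from the median of Axin2 r was -0.73. Over all 12 tumours, p53 tumours included, Znrf3 had r = -0.38 (permutation p = 0.228, adjusted p = 0.858). Sox9 was next, with r = -0.78 (exact p = 0.0133, adjusted p = 0.146) and rho = -0.67 (exact p = 0.0589, adjusted p = 0.259). Nkd1 had r = 0.63 (exact p = 0.0702, adjusted p = 0.515) and rho = 0.78 (exact p = 0.0172, adjusted p = 0.189). Lgr5 had r = 0.54 (exact p = 0.13, adjusted p = 0.692) and rho = 0.72 (exact p = 0.0369, adjusted p = 0.259). Without the 2 farthest tumours r was -0.47 for Sox9, 0.52 for Nkd1 and 0.36 for Lgr5.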

How the data were processed

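RNA of 17 mouse mammary samples was measured on Affymetrix arrays. Per the submitters' processing notes, the deposited log2 values were made by RMA, which corrects background, normalises arrays to each other and summarises probes, in Partek 5.6; the genome build is not given in the sources used here. Of 35556 probe sets 21789 carried 1 gene symbol, 1621 several and 12146 none here. The probe set with the highest mean was kept per symbol, which left 19938 genes; of the 42 genes only Wnt4 had a second one. RMA draws array distributions together and compresses low levels.

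Groups were compared with limma 3.58.1 (lmFit and eBayes, 2-sided) in R 4.3.3, with Benjamini-Hochberg adjustment over all genes. Both comparisons with normal tissue used all 17 arrays, Rb/p53 against p53 and Ad-Cre against MMTV-Cre the 12 tumour arrays, and transplanted against other tumours 7 arrays. The scripts were tested on simulated data. The members and lists were chosen with earlier results of these data known. Every one of the 42 genes may be named; of other lists up to 4 genes past the threshold with the widest difference are, besides Ctnnb1, Rb1 and genes that the report says were picked after their values were seen. Promoters came from RefSeq. The number of arrays limits the precision. Alternatives were other variance models, array weights, a low-level filter, renormalisation, a mean of probe sets, a minimum difference, other sample sets and each array left out.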

Additional observations from a re-analysis of the deposited data

Results flagged for a closer look

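For each of the 42 genes the Rb/p53 tumours and the normal samples were searched for a single sample far from its group, by the gap to the nearest other sample as a share of the group's range. Of 84 groups of values 9 held one, and chance alone marks about 5% of groups. In normal tissue Sfrp1 was 11.02 in replicate 4, next 10.27 (share 0.82), Wnt16 7.97 in replicate 1, next 7.36 (0.78), Wnt6 7.44 in replicate 5, next 7.24 (0.82), and Fzd5 was low at 7.76 in replicate 3, next 7.96 (0.75).

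Among the Rb/p53 tumours Sfrp5 was 7.71 in MMTV-Cre replicate 2, next 6.78 (share 0.77), Wif1 7.74 in MMTV-Cre replicate 1, next 7.06 (0.58), and Lrp5 11.05 in MMTV-Cre replicate 4, next 10.23 (0.62). Ad-Cre replicate 2 held the highest Wnt2b at 9.29, next 7.83 (0.65), and the lowest Wnt3 at 6.31, next 6.53 (0.53), which is within background.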

How the results depend on the processing

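Of the 13 calls in Rb/p53 tumours, 5 (1 higher, 4 lower) remained when a log2 difference of at least 1 was also asked, and of the 12 calls in p53 tumours 6 did (1 higher, 5 lower). The share of all genes with that minimum difference was not counted. With each sample left out in turn the counts were 11 to 15 and 9 to 12. In these fits 22.1% to 27.1% and 16.2% to 26.9% of all genes passed. Array weights raised the first count to 19 (38.2% of all genes passed, against 27.6%), and the fit without p53 replicate 2, chosen after the data were seen, to 16 (33.7%). With MMTV-Cre replicates 1 and 2 as the only Rb/p53 tumours it was 9 (10.1%). Between Rb/p53 and p53 tumours the count was 1 with p53 replicate 3 moved (10.3%), and 0 otherwise. Leaving out 1 sample gave 0 to 1 between Ad-Cre and MMTV-Cre tumours, 0 to 2 between transplanted and other tumours and 0 to 1 for genes correlated with Axin2, the last being Znrf3 without MMTV-Cre replicate 1 or 3. Where 1 sample remained in a group it was taken to vary like the others. No direction of a called gene reversed under the alternatives run; the cause of the moves was not tested. Dkk4, Fzd3 and Wnt7b in p53 tumours and Wnt11 in Rb/p53 tumours lost their calls most often. No paired analysis was possible because the replicate numbers only name samples. Levels near the olfactory background, as for Wnt1, Wnt3, Wnt7a and Wnt8b, limit what could be seen.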
